A study of Mus musculus with 128 samples.

Results

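The phosphofructokinases and the enzymes that set their main activator were followed in mouse liver after a fast. The 7 genes are Pfkl, Pfkm and Pfkp, which encode the subunits of phosphofructokinase, and Pfkfb1, Pfkfb2, Pfkfb3 and Pfkfb4. They were taken by symbol from a table of 35275 genes, and all 7 were found. The animals were wild-type males of 8 weeks, of C57BL6/J or BALB/c, both inbred strains, and had had 1 week of training to timed meals. They were then fasted for 21 h. Drinking water was removed at 4 pm, and at 7 pm chow was offered in which fat gave 10% and carbohydrate 64.5% of calories. With the chow came water or a 20% solution of glucose, sucrose or fructose. Livers were taken at 0 h, before food, and at 3, 6 and 12 h, so hours after food and clock hour cannot be told apart. Strain, drink and time formed 26 groups: 24 of 5 libraries and 2 of 4, the latter BALB/c on glucose and on fructose at 12 h. Only water was sampled at 0 h.

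Phosphofructokinase phosphorylates fructose 6-phosphate and so commits it to glycolysis. It is a tetramer of liver-type (Pfkl), muscle-type (Pfkm) and platelet-type (Pfkp) subunits. The Pfkfb genes encode bifunctional enzymes whose kinase makes, and whose phosphatase removes, fructose 2,6-bisphosphate, which activates phosphofructokinase and inhibits fructose bisphosphatase, its gluconeogenic opposite. Pfkfb1 encodes the form long known from liver, which glucagon signalling switches from kinase to phosphatase by phosphorylation. Pfkfb2 is best known from heart, where insulin signalling raises its kinase activity. Pfkfb3 is the inducible form with a high ratio of kinase to phosphatase activity, and Pfkfb4 was described in testis. The libraries measured transcripts, not enzyme amount or phosphorylation.

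Total counts were 18541545 to 43118895 per library (median 24131379). Summed transcripts of 6 hepatocyte markers, all found, made up 50008 to 111188 CPM, which is counts scaled to the library total. The labels do not state outright that each library is a separate mouse, so p-values measure the spread between libraries, which may be partly technical. In whole-liver RNA, fewer cells of a type and less RNA per cell cannot be told apart. The names of 34 libraries end in an added letter a of unstated meaning. Values from the other 94 libraries, called within-batch here, stand beside pooled ones where the 2 differ in call. No label says that these 94 libraries form a single batch. With the suffix as a covariate instead, every call of the main analysis was kept.

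Among the libraries on water at 0 and 12 h, 3 stood far from the rest of their group in Pck1 or Igfbp1, genes of fasting. C57BL6/J 0 h replicate 2 gave 160 CPM of Pck1, a gluconeogenic enzyme, against 3490 to 5152 in the other 4 libraries. BALB/c 0 h replicate 1 gave 10550 CPM of Igfbp1, a binding protein that fasting and stress induce, against 46.0 to 99.5 in the others. BALB/c 12 h replicate 1 gave 1939 CPM of Igfbp1 against 15.1 to 69.5. Values without these 3 libraries are given beside the results whose calls they changed. In G6pc, a gluconeogenic gene, BALB/c 12 h replicate 4 gave 970 CPM against 118 to 310 in the others. It was not counted among the 3.

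All 7 genes passed the filter on low counts, and none was at 0 in any library. On mm10, Pfkl (ENSMUSG00000020277) lies on chromosome 10 at 77986947 to 78010083, minus strand, and Pfkm (ENSMUSG00000033065) on chromosome 15 at 98092589 to 98132447, plus strand. Pfkp (ENSMUSG00000021196) lies on chromosome 13 at 6579768 to 6648777, minus strand. Pfkfb1 (ENSMUSG00000025271) lies on chromosome X at 150588229 to 150643878, plus strand, and Pfkfb2 (ENSMUSG00000026409) on chromosome 1 at 130689182 to 130729253, minus strand. Pfkfb3 (ENSMUSG00000026773) lies on chromosome 2 at 11471430 to 11502101, minus strand, and Pfkfb4 (ENSMUSG00000025648) on chromosome 9 at 108991902 to 109032223, plus strand. Use of read strand in counting is not given in the sources used, and 4 of the genes overlap others. Pfkfb2 shares 7032 bases with Yod1 on the opposite strand, which had a mean count of 432 per library against 367 for Pfkfb2. It also shares 26618 bases with a second table entry named PFKFB2, which had a mean count of 5.91. Pfkm overlaps Senp1 by 1156 bases, Pfkp overlaps Pitrm1 by 372 and Pfkfb1 overlaps Apex2 by 1640. By overlap alone, these counts are less certain than those of Pfkl, Pfkfb3 and Pfkfb4. The deposited coordinates of Pfkfb3 leave out a stretch that reaches 11554077 in GENCODE M21, where another RefSeq start lies. Pfkfb4 begins at 108991778 there.

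Promoter sequence is shown for Pfkfb1, Pfkfb2 and Pfkfb3, whose transcripts all fell in the 3 h after food on water. The windows are the 250 bases before the start site in RefSeq (GRCm38.p6), written 5′ to 3′ on the gene's own strand. RefSeq gave 16 such windows for the 7 genes. Capitals mark the E-box, the palindrome CACGTG that factors of the basic helix-loop-helix class bind, here read on both strands.
Pfkfb3 (chr2:11502091-11502340, minus strand): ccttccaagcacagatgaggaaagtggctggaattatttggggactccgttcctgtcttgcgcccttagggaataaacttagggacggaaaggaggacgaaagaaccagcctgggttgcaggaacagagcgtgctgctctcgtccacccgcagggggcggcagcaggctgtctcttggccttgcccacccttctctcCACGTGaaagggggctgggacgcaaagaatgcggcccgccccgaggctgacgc
Pfkfb2 (chr1:130715822-130716071, minus strand): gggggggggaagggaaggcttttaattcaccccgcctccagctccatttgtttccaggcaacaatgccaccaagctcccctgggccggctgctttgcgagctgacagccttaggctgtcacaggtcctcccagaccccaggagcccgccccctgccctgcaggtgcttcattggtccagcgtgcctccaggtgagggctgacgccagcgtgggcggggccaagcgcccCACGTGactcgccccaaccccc
Pfkfb1 (chrX:150587993-150588242, plus strand): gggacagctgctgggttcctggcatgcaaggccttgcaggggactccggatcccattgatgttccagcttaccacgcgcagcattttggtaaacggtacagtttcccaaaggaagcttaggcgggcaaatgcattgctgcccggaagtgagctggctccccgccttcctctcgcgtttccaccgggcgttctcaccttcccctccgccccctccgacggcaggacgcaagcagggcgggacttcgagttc
The E-box began at position -53 from the start site in the Pfkfb3 window and at -22 in the Pfkfb2 window, and the Pfkfb1 window held none. All 3 genes have more than 1 RefSeq start, with 2 windows for Pfkfb3, 3 for Pfkfb2 and 4 for Pfkfb1. For Pfkfb3 and Pfkfb2 the window with the E-box is the one shown, so its presence there was a matter of choice. For Pfkfb1, where 0 of 4 windows held one, the window shown is the one nearest the start of the gene in the deposited table. The start used in these livers was not measured. Of the 16 windows, 3 held one, the other being a Pfkm window with the E-box at position -136. Among the 32851 RefSeq windows of this length that were searched, which did not cover every chromosome, 6.0% held these letters. A match describes the letters only.

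Compared per length, on the deposited FPKM scale (fragments per length of gene model, scaled to library total), the order of the transcripts in liver was Pfkfb1, Pfkl, Pfkm, Pfkfb2, Pfkfb3, Pfkp, Pfkfb4. Pfkfb1 had a median level of 19.7 FPKM over all libraries (range 8.61 to 43.4) and Pfkl 13.1 (8.01 to 23.0). Pfkm, the muscle-type subunit, was the third with 7.19 (4.18 to 12.0). Pfkfb2 had 3.04 (1.51 to 11.7) and Pfkfb3 1.57 (0.352 to 7.77). Pfkp and Pfkfb4 were lowest, at 0.623 (0.272 to 1.76) and 0.481 (0.109 to 1.71). The order of these 2 depends on the gene lengths used, 4663 and 3297 bases as deposited. With GENCODE M21 exon lengths of 13401 and 4875 bases they change places. The ranges of neighbours in this order overlapped in every case. Median counts ran from 1338 for Pfkfb1 and 1209.5 for Pfkl to 72 for Pfkp and 39 for Pfkfb4, so the last 2 carry the most counting error.

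Of the 3 phosphofructokinase subunits, Pfkl made up a median of 62.0% of their summed FPKM, Pfkm 34.6% and Pfkp 2.94%. Of the 4 Pfkfb transcripts, Pfkfb1 made up 78.5% (56.1 to 89.9 over libraries), Pfkfb2 11.8%, Pfkfb3 6.01% and Pfkfb4 1.91%. On water the Pfkfb3 share was highest before food. In C57BL6/J it was 16.5 ± 6.08% (SD, n = 5) before food, 12.0 ± 2.64% at 3 h, 5.89 ± 1.53% by 6 h and 3.42 ± 0.93% by 12 h. In BALB/c it was 11.8 ± 4.22%, 5.84 ± 1.09%, 3.61 ± 1.71% and 3.62 ± 1.73% at these times. On glucose at 3 h it was 16.7 ± 9.04% in C57BL6/J, with 1 library at 31.5%, and 6.39 ± 1.68% in BALB/c. Group means of CPM, used within a gene, spread most for Pfkfb3. Its highest mean, in C57BL6/J at 0 h, was 8.47 times its lowest, in BALB/c on fructose at 12 h. The same ratio was 3.51 for Pfkfb4, 2.14 for Pfkfb1, 2.12 for Pfkp, 2.09 for Pfkfb2 and 1.66 for Pfkl and for Pfkm.

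The first question was how these transcripts change when a fasted mouse eats chow with water. Pfkfb3 fell furthest. Its level per library was 17.9, 18.2, 38.8, 34.5 and 18.7 CPM in C57BL6/J at 0 h and 10.6, 15.5, 10.6, 12.6 and 14.7 at 3 h. At 6 h it was 10.1, 9.26, 10.0, 12.6 and 7.41, and at 12 h 4.42, 6.68, 4.13, 4.26 and 4.72. Every fed C57BL6/J library lay below every fasted one. The BALB/c values were 27.6, 12.5, 17.6, 17.0 and 24.8 CPM at 0 h, 5.39, 7.71, 7.90, 5.28 and 8.04 at 3 h and 6.75, 4.01, 5.11, 5.43 and 3.21 at 6 h. BALB/c libraries at 3 and 6 h also lay below every fasted one. At 12 h the BALB/c values were 15.5, 4.38, 1.74, 3.94 and 2.41, and replicate 1, one of the libraries that stand apart, reached into the fasted range. The log2 fold change against 0 h, as the mean of both strains, was -1.27 ± 0.26 (SE) at 3 h (edgeR quasi-likelihood test, adjusted p = 5.9e-05). It was -1.70 ± 0.26 at 6 h (edgeR, adjusted p = 1.21e-07) and -2.11 ± 0.27 at 12 h (edgeR, adjusted p = 5.29e-10), a 4.33-fold lower level. In each of these comparisons 10 of 10 libraries lay below the 0 h mean of their strain. The comparisons share the 0 h libraries, so they are not independent.

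Pfkfb2 fell less, and early. In C57BL6/J it was 16.4, 13.4, 14.2, 22.3 and 29.2 CPM at 0 h, 11.4, 10.9, 10.9, 14.6 and 12.0 at 3 h and 12.0, 11.7, 14.3, 14.3 and 13.6 at 6 h. The BALB/c levels were 43.6, 18.4, 16.2, 16.5 and 21.6 at 0 h, 13.7, 16.7, 9.24, 11.7 and 17.5 at 3 h and 11.6, 16.5, 14.5, 14.0 and 10.5 at 6 h. The groups overlapped at several points, and BALB/c 0 h replicate 1 was far above its group. The log2 fold change was -0.71 ± 0.15 at 3 h (edgeR, adjusted p = 0.000129) and -0.66 ± 0.15 at 6 h (edgeR, adjusted p = 0.000308), with 10 of 10 libraries lower in each. Without that library the 3 h value was -0.53 and still passed. At 12 h the difference was -0.31 (edgeR, adjusted p = 0.159). There BALB/c replicate 1 stood at 42.9 CPM against 12.6 to 20.2 in the rest, and without it the value was -0.51 (edgeR, adjusted p = 0.00671).

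Pfkfb1, the most abundant of the 7 per length, fell at 3 h and was higher again at 6 h. In C57BL6/J its level was 56.1, 39.2, 49.3, 71.8 and 71.3 CPM at 0 h, 37.8, 36.6, 49.5, 42.4 and 43.1 at 3 h, 52.2, 74.9, 104, 83.6 and 71.6 at 6 h and 48.5, 71.8, 42.6, 82.6 and 91.4 at 12 h. Its 3 h and 6 h values did not overlap in this strain. In BALB/c the levels were 56.6, 84.5, 56.9, 82.2 and 52.4 at 0 h, 42.0, 52.6, 48.7, 52.9 and 47.9 at 3 h, 41.1, 71.3, 76.8, 69.0 and 57.8 at 6 h and 94.5, 44.5, 42.3, 47.4 and 36.3 at 12 h, with overlap between 3 and 6 h. The change from 0 to 3 h was -0.45 ± 0.15 (edgeR, adjusted p = 0.0172), lower in 10 of 10 libraries. It no longer passed without replicate 4 or without replicate 5 (highest adjusted p = 0.10). From 3 to 6 h it rose by 0.63 ± 0.15 (edgeR, adjusted p = 0.0029), in 9 of 10 libraries. Within-batch this was 0.57 (edgeR, adjusted p = 0.0743).

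Pfkfb4 and Pfkp were low transcripts that rose by 6 h. Pfkfb4 in C57BL6/J was 0.611, 0.879, 1.43, 1.35 and 1.90 CPM at 0 h and 1.47, 1.45, 1.10, 1.36 and 1.83 at 6 h, which overlap. In BALB/c it was 0.647, 1.11, 1.27, 2.12 and 0.878 at 0 h and 3.26, 2.70, 1.85, 3.56 and 2.54 at 6 h, which overlap in 1 fasted library. The change at 6 h was 0.72 ± 0.28 (edgeR, adjusted p = 0.0426), in 9 of 10 libraries. It was lost in 8 of 17 alternative analyses, among them those without C57BL6/J 0 h replicate 2 (0.67, adjusted p = 0.0693 by edgeR) and without BALB/c 0 h replicate 1 (0.64, adjusted p = 0.0943). Within-batch it was 0.62 (edgeR, adjusted p = 0.116).

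Pfkp in C57BL6/J was 1.78, 2.54, 2.77, 2.37 and 3.53 CPM at 0 h, 3.45, 2.71, 3.19, 3.63 and 3.28 at 6 h and 2.95, 3.83, 4.09, 5.79 and 3.40 at 12 h. The BALB/c values were 3.84, 2.27, 1.76, 2.26 and 1.45 at 0 h, 5.30, 2.81, 2.47, 2.56 and 5.24 at 6 h and 3.46, 2.72, 2.38, 3.13 and 3.26 at 12 h. All these groups overlapped with the fasted group of their strain. The change was 0.49 ± 0.18 at 6 h (edgeR, adjusted p = 0.0275) and 0.50 ± 0.18 at 12 h (edgeR, adjusted p = 0.0398). All 10 libraries were higher at each time. Within-batch neither passed, with 0.49 at 6 h (edgeR, adjusted p = 0.075) and 0.48 at 12 h (edgeR, adjusted p = 0.138). Without BALB/c 12 h replicate 1 the 12 h value was 0.47 (edgeR, adjusted p = 0.0638). The summed level of 4 cholangiocyte markers, 4 of 4 found, was also higher after food. On water it was 6.15 to 20.8 CPM at 0 h (median 8.79) and 10.3 to 138 at 3 h (median 15.8). It was 10.0 to 22.4 at 6 h (median 16.0) and 9.34 to 23.8 at 12 h (median 18.0). At 3 h Pfkp was higher in 7 of 10 libraries and did not pass. Across all libraries Pfkp and this sum, as deviations from their group means, had a Pearson correlation of 0.506 and a Spearman correlation of 0.481, given as a description. The part of these cells in the Pfkp result was not tested.

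For the main liver subunit Pfkl and the muscle-type Pfkm no feeding comparison on water passed. Pfkl in C57BL6/J was 50.02, 34.97, 49.2, 47.5 and 51.2 CPM at 0 h and 36.7, 46.5, 37.6, 34.2 and 40.5 at 12 h. The BALB/c levels were 53.8, 55.9, 68.8, 66.5 and 67.9 at 0 h and 46.5, 60.1, 55.3, 47.5 and 52.6 at 12 h. Each 12 h library lay below the 0 h mean of its strain, by a log2 fold change of -0.25 that did not pass (edgeR, adjusted p = 0.0587). It passed in 9 of 17 alternative analyses, among them those without C57BL6/J 0 h replicate 2 (-0.30, adjusted p = 0.023 by edgeR), without BALB/c 0 h replicate 1 (-0.28, adjusted p = 0.04) and within-batch (-0.37, adjusted p = 0.0301). Pfkm differed by -0.23 at 3 h (edgeR, adjusted p = 0.137), and without C57BL6/J 0 h replicate 2, its lowest fasted library, by -0.29 (edgeR, adjusted p = 0.0379).

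Counted together, 3 of the 7 genes passed at 3 h against 0 h, all lower, beside 25.4% of all 16886 genes tested. At 6 h against 0 h 4 passed, 2 higher and 2 lower, beside 28.8%. At 12 h against 0 h 2 passed, 1 higher and 1 lower, beside 17.6%. From 3 to 6 h 1 passed beside 8.08%, and from 6 to 12 h 0 of 7 passed beside 29.1%. The median log2 fold change of the 7 at 3 h was -0.23, and -0.01 over all genes. From 6 to 12 h on water, Pfkfb3 differed by -0.42 (edgeR, adjusted p = 0.236) and Pfkfb1 by -0.23 (edgeR, adjusted p = 0.268). Without BALB/c 12 h replicate 1 both passed, at -0.84 (edgeR, adjusted p = 0.00817) and -0.38 (edgeR, adjusted p = 0.0424).

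**Figure D1:**
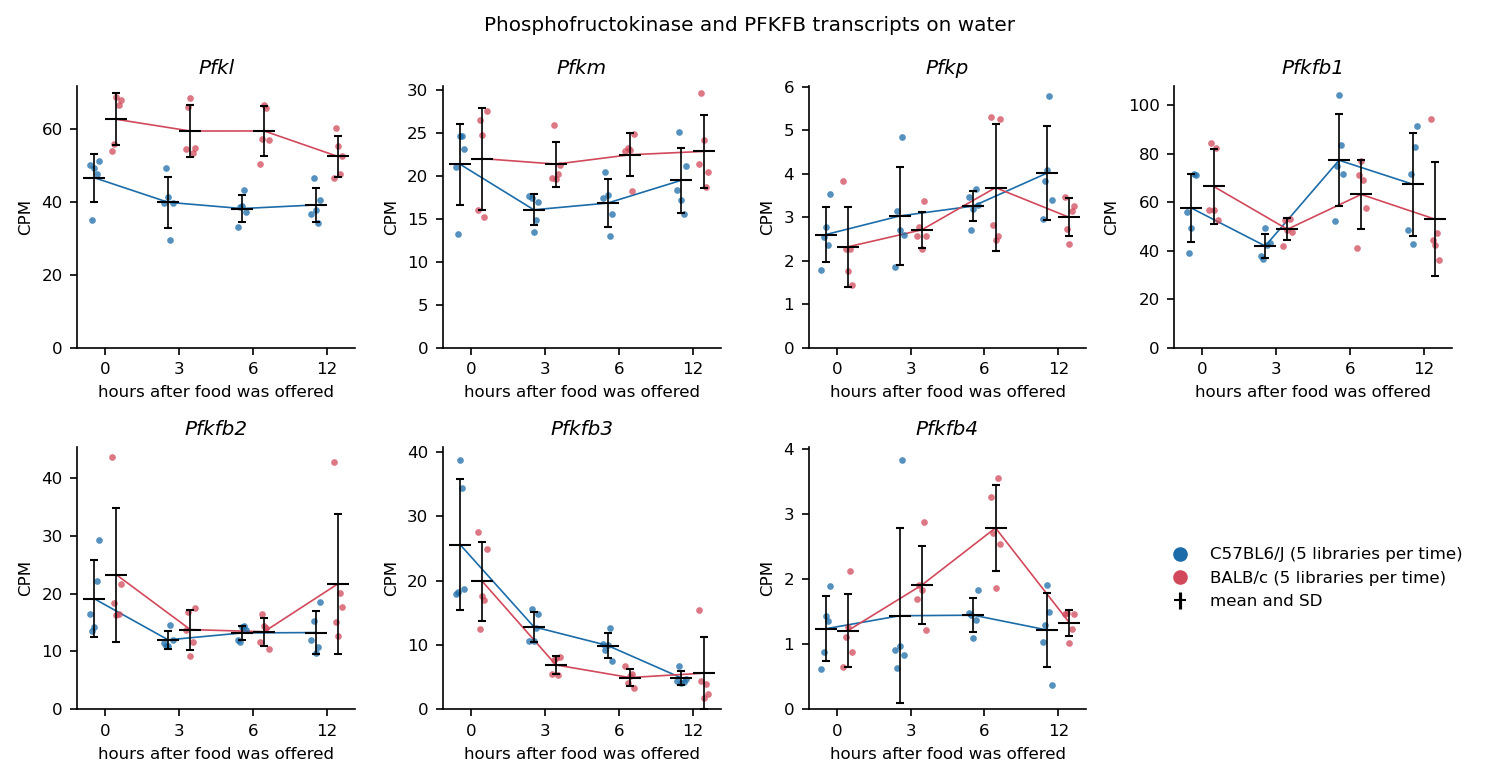
Levels of the 7 genes in livers of mice given chow and water, in CPM on the vertical axis against hours after food (evenly spaced steps); points are single libraries, C57BL6/J in blue and BALB/c in red, and black bars give the mean and SD of 5 libraries. Pfkfb3 fell from 12.5 to 38.8 CPM at 0 h to 1.74 to 15.5 CPM at 12 h, while Pfkl lay between 29.4 and 68.8 CPM in all water libraries.

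Averaging the 4 drinks gave 40 libraries at each of 3 and 6 h, and 38 at 12 h. These contrasts were added after the data were examined. From 6 to 12 h 3 of the 4 Pfkfb genes fell. Pfkfb3 fell by 1.03 ± 0.13 on the log2 scale (edgeR, adjusted p = 1.06e-10), in 36 of 38 libraries. In C57BL6/J its median was 12.0 CPM at 6 h (range 3.94 to 23.8) and 4.19 at 12 h (2.41 to 7.01). In BALB/c it was 6.46 at 6 h (2.89 to 18.7) and 3.85 at 12 h (1.74 to 19.5). The ranges of the 2 times overlapped in both strains.

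Pfkfb4 fell by 0.95 ± 0.14 from 6 to 12 h (edgeR, adjusted p = 8.28e-09), in 35 of 38 libraries. Its median went from 1.71 CPM (0.663 to 4.10) to 1.25 (0.363 to 2.04) in C57BL6/J and from 2.85 (1.49 to 5.52) to 1.19 (0.610 to 2.37) in BALB/c. Pfkfb1 fell by 0.35 ± 0.08 (edgeR, adjusted p = 5.97e-05), in 29 of 38 libraries. Its median went from 71.8 CPM (45.1 to 104.2) to 55.1 (30.0 to 92.1) in C57BL6/J and from 59.1 (41.1 to 80.2) to 42.5 (29.01 to 94.5) in BALB/c. These 3 of 7 genes passed beside 51.6% of all genes tested, and passed in all 17 alternative analyses, among them one with muscle transcripts as a covariate. Pfkfb2 differed by 0.17 ± 0.08 (edgeR, adjusted p = 0.0655), and without BALB/c 0 h replicate 1 by 0.17 (edgeR, adjusted p = 0.0492).

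From 3 to 6 h, 3 of 7 passed, all higher, beside 29.2%. Pfkfb1 rose by 0.46 ± 0.08 (edgeR, adjusted p = 4.88e-07), in 36 of 40 libraries, and Pfkfb4 by 0.47 ± 0.14 (edgeR, adjusted p = 0.00531), in 30 of 40. The Pfkfb4 call was lost without replicate 1 and without replicate 5. Pfkp rose by 0.24 ± 0.09 (edgeR, adjusted p = 0.0309), in 26 of 40, and lost its call in 6 of 17 alternative analyses. Within-batch it was 0.19 (edgeR, adjusted p = 0.256). Pfkfb3 differed by -0.27 (edgeR, adjusted p = 0.11) and was lower in 31 of 40. In each strain the medians of Pfkfb1 and Pfkfb4 at the 3 fed times were highest at 6 h, whereas the Pfkfb3 median was highest at 0 h. Pfkfb4 deviations within groups correlated with those of the hepatocyte marker sum at -0.502 (Spearman -0.522) over all libraries, as a description. With the endothelial, macrophage, erythroid and cholangiocyte sums the Pearson correlation was 0.400, 0.395, 0.393 and 0.390 (Spearman 0.383, 0.365, 0.337 and 0.375). Over the 4 drinks the erythroid sum, 3 of 3 markers found, was lower at 12 h like Pfkfb4, with 74.5 to 704 CPM at 6 h (median 251.7) and 50.8 to 245 at 12 h (median 141). The endothelial sum, 6 of 6 found, was 127 to 223 CPM at 6 h (median 177) and 142 to 259 at 12 h (median 198). The part of other cells in the Pfkfb4 result was not tested.

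**Figure D2:**
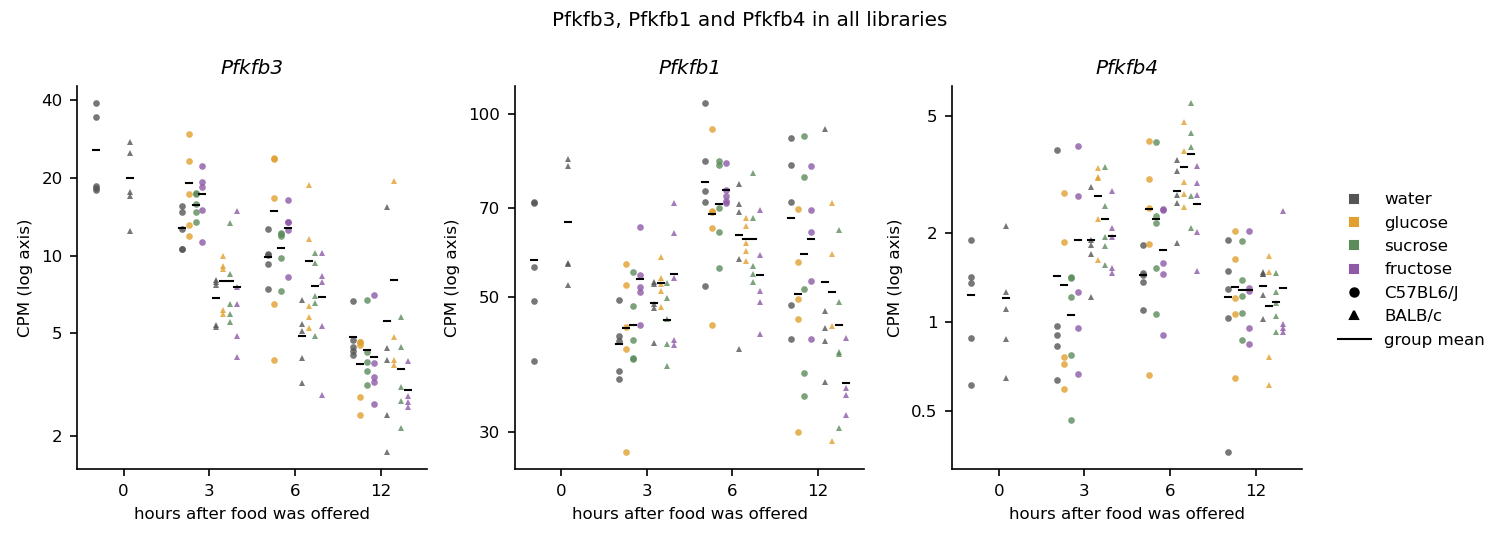
Pfkfb3, Pfkfb1 and Pfkfb4 in all libraries, in CPM on a log axis against hours after food (evenly spaced steps); colour gives the drink, circles C57BL6/J, triangles BALB/c and short lines group means. The Pfkfb3 median was highest at 0 h, and Pfkfb1 and Pfkfb4 had their highest medians of the fed times at 6 h in each strain.

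The second question was whether the sugar in the drink changed these transcripts. No member passed in any of the 9 comparisons of a sugar with water, 0 of 63 tests by edgeR, and DESeq2 also called 0. Of these tests 7 had an unadjusted p under 0.05. The share of all genes at that unadjusted limit was not counted, so nothing is read from the 7. The share of all genes called, by adjusted p, was small as well. At 3 h it was 0.19% for glucose, 2.92% for sucrose and 6.71% for fructose. At 6 h it was 0.906%, 1.14% and 1.23% in that order, and at 12 h 0.0651%, 0.00592% and 0.00592%. The comparisons at one time share the water libraries.

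Group levels on the sugars are given as mean ± SD in CPM, for glucose, sucrose and fructose in that order, with 5 libraries a group and 4 in BALB/c on glucose and on fructose at 12 h. Pfkl, the main liver subunit, was 38.5 ± 8.99, 43.1 ± 5.54 and 42.2 ± 7.80 at 3 h, 40.4 ± 4.43, 42.0 ± 7.61 and 40.8 ± 6.78 at 6 h, and 38.4 ± 3.90, 41.6 ± 3.45 and 39.4 ± 5.18 at 12 h in C57BL6/J. The BALB/c values were 58.8 ± 11.6, 60.1 ± 3.74 and 61.4 ± 3.95 at 3 h, 60.6 ± 14.4, 59.5 ± 8.07 and 63.3 ± 11.6 at 6 h, and 55.9 ± 9.12, 55.5 ± 10.2 and 58.2 ± 11.1 at 12 h. Each BALB/c mean for Pfkl was above the C57BL6/J mean of the same drink and time. Pfkfb3 was 19.0 ± 7.36, 15.7 ± 1.72 and 17.2 ± 4.19 at 3 h, 14.9 ± 9.32, 10.6 ± 2.14 and 12.8 ± 2.94 at 6 h, and 3.81 ± 1.09, 4.31 ± 1.41 and 4.04 ± 1.72 at 12 h in C57BL6/J. The BALB/c levels were 8.00 ± 1.84, 7.98 ± 3.24 and 7.56 ± 4.30 at 3 h, 9.54 ± 5.73, 7.59 ± 2.18 and 6.94 ± 2.85 at 6 h, and 8.02 ± 7.66, 3.64 ± 1.46 and 3.02 ± 0.5997 at 12 h. On every sugar and in both strains the 12 h mean of Pfkfb3 was below the 6 h mean. Its widest SDs were on glucose, in C57BL6/J at 6 h and in BALB/c at 12 h, where replicate 2 stood at 19.5 CPM. Pfkfb1 was 44.5 ± 11.2, 45.0 ± 6.57 and 53.5 ± 7.38 at 3 h, 68.6 ± 17.6, 71.2 ± 12.0 and 74.97 ± 4.68 at 6 h, and 50.5 ± 14.6, 58.9 ± 25.6 and 62.2 ± 15.1 at 12 h in C57BL6/J. In BALB/c it was 52.8 ± 3.71, 45.8 ± 5.80 and 54.6 ± 13.0 at 3 h, 62.2 ± 4.16, 62.3 ± 11.5 and 54.3 ± 10.0 at 6 h, and 51.1 ± 18.3, 45.0 ± 12.8 and 36.2 ± 4.64 at 12 h. The 12 h mean of Pfkfb1 was also below its 6 h mean on every sugar in both strains. The lowest and highest group means of the other members, over all 26 groups, were 16.0 and 26.6 for Pfkm, 1.99 and 4.22 for Pfkp, 11.1 and 23.3 for Pfkfb2, and 1.06 and 3.72 for Pfkfb4. The highest Pfkfb4 mean was in BALB/c on sucrose at 6 h and the highest Pfkfb2 mean in fasted BALB/c.

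The largest difference was for Pfkfb3 on glucose at 6 h. In C57BL6/J it was 23.6, 23.8, 16.6, 6.51 and 3.94 CPM on glucose and 10.1, 9.26, 10.0, 12.6 and 7.41 on water. The BALB/c values were 18.7, 5.78, 11.6, 5.26 and 6.37 on glucose and 6.75, 4.01, 5.11, 5.43 and 3.21 on water. The glucose groups were wide and overlapped water in both strains. The log2 difference was 0.78 ± 0.26 (95% interval 0.27 to 1.29; edgeR, adjusted p = 0.125), with 8 of 10 libraries higher. Within-batch it was 0.63 (edgeR, adjusted p = 0.339).

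Pfkm on sucrose at 3 h lay above the water mean in 9 of 10 libraries, with a log2 difference of 0.28 ± 0.11 that did not pass (edgeR, adjusted p = 0.195). Its levels on sucrose were 14.6, 16.7, 23.6, 20.4 and 20.0 CPM in C57BL6/J and 23.0, 26.4, 29.8, 24.8 and 29.3 in BALB/c. On water they were 17.6, 17.4, 13.5, 14.8 and 16.9 and 19.7, 25.9, 19.7, 20.2 and 21.3. The summed level of 10 skeletal muscle markers at 3 h had a median of 145 CPM on sucrose (1.99 to 474) and 59.7 on water (2.78 to 199.7). With that sum as a covariate the Pfkm difference was 0.21 ± 0.09 (edgeR, adjusted p = 0.29). On fructose at 12 h, Pfkfb3 differed from water by -0.57 ± 0.28, Pfkp by -0.39 ± 0.18 and Pfkfb1 by -0.33 ± 0.16 (edgeR, adjusted p = 0.999955 for each). The BALB/c water group at 12 h includes replicate 1, which stands apart. It had 15.5 CPM of Pfkfb3 (others 1.74 to 4.38) and 94.5 of Pfkfb1 (others 36.3 to 47.4). The 95% intervals of all 9 comparisons stayed between -0.22 and 0.29 for Pfkl, the most precisely measured. They stayed between -0.30 and 0.50 for Pfkm and between -0.64 and 0.55 for Pfkfb1. For Pfkfb3 they reached from -1.11, on fructose at 12 h, to 1.29, on glucose at 6 h.

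Averaging the 3 sugars against water, contrasts also added after the data were examined, gave 0 of 7 at each time, beside 3.94% of all genes at 3 h, 2.72% at 6 h and 0.172% at 12 h. Pfkm differed by 0.21 ± 0.09 at 3 h (edgeR, adjusted p = 0.239), with 23 of 30 libraries higher, and by 0.22 ± 0.09 at 6 h (edgeR, adjusted p = 0.205), higher in 21 of 30. Pfkfb3 differed by 0.53 ± 0.22 at 6 h (edgeR, adjusted p = 0.185), higher in 23 of 30, and was lower in 24 of 28 at 12 h. That 12 h count is taken against a BALB/c water mean that includes replicate 1, at 15.5 CPM (others 1.74 to 4.38). The count without this library was not made.

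Glucose, fructose and sucrose, the disaccharide of the other two, were also compared with each other in 9 pairs at the same stated concentration and time. Again 0 of 63 member tests passed by edgeR or DESeq2, and 3 had an unadjusted p under 0.05. Here too the share of all genes at that unadjusted limit was not counted. Fructose against glucose called 2.35% of all genes at 3 h, 0.255% at 6 h and 0% at 12 h. Sucrose against glucose called 0.213%, 0.0118% and 0.00592%, and sucrose against fructose called 0% at each time. The 3 member tests were Pfkfb3 for fructose against glucose at 12 h (-0.66, 95% interval -1.21 to -0.10), Pfkp for sucrose against fructose at 12 h (0.47, 0.11 to 0.83) and Pfkp for sucrose against glucose at 6 h (-0.39, -0.74 to -0.04). The BALB/c glucose group at 12 h holds replicate 2, at 19.5 CPM of Pfkfb3 (others 3.79 to 4.83). For Pfkl every interval between sugars stayed within -0.22 and 0.29. A test that does not pass does not show that the sugars act alike.

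**Figure D3:**
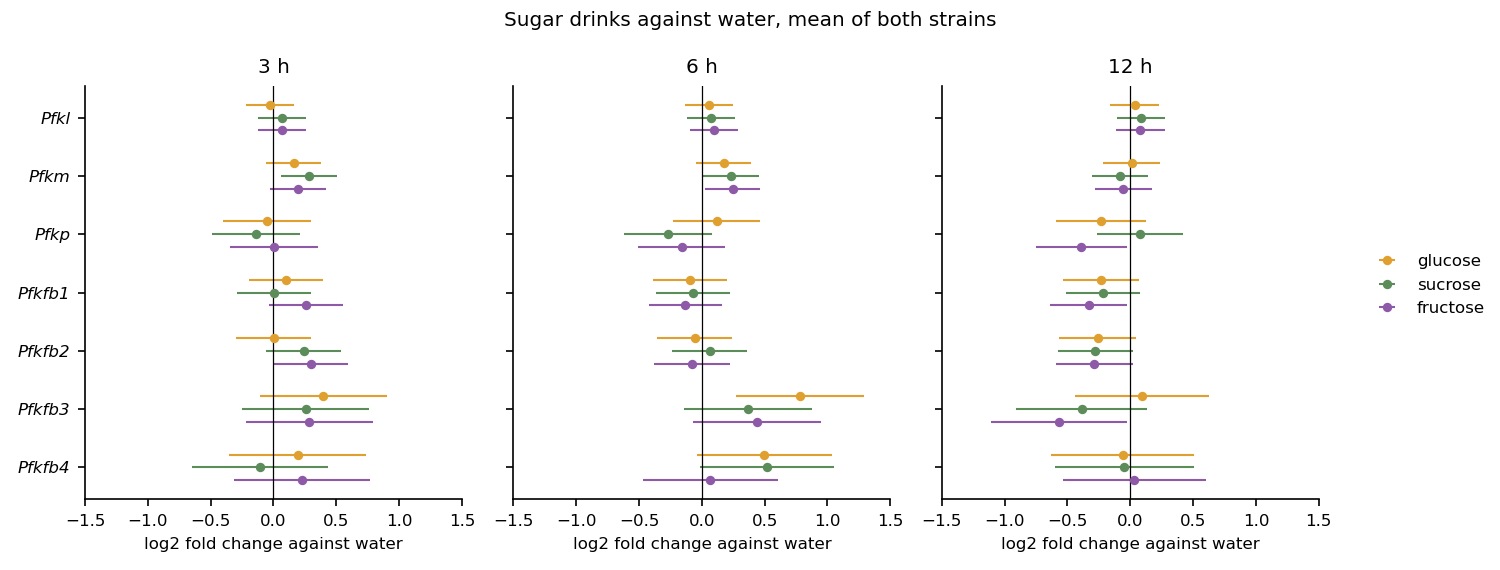
Log2 difference of each sugar from water at 3, 6 and 12 h for the 7 genes, as the mean of both strains. Bars are 95% intervals derived from the edgeR test. Intervals are narrow for Pfkl and wide for Pfkfb3 and Pfkfb4, and no difference passed an adjusted p of 0.05.

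The strains differed most plainly in Pfkl. In the fasted liver on water its values were 50.02, 34.97, 49.2, 47.5 and 51.2 CPM in C57BL6/J and 53.8, 55.9, 68.8, 66.5 and 67.9 in BALB/c, which do not overlap. The log2 difference, BALB/c minus C57BL6/J, was 0.43 ± 0.14 (edgeR, adjusted p = 0.021). It was the only 1 of 7 genes to pass at 0 h, beside 16.3% of all genes. Without C57BL6/J 0 h replicate 2, which had the lowest value, it was 0.34 (edgeR, adjusted p = 0.109), and within-batch 0.31 (edgeR, adjusted p = 0.24).

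As the mean over the 13 conditions of drink and time, 7 of 7 genes differed between strains, but so did 55.3% of all genes. Pfkl was higher in BALB/c by 0.53 ± 0.04 (edgeR, adjusted p = 3.11e-24), a 1.45-fold level. Its median was 39.96 CPM in 65 C57BL6/J libraries (29.4 to 54.4) and 59.1 in 63 BALB/c libraries (42.3 to 84.2). All 63 BALB/c libraries lay above the C57BL6/J mean of their condition. Pfkm was higher by 0.22 ± 0.04 (edgeR, adjusted p = 6.6e-06), in 51 of 63 libraries, with medians of 19.5 CPM (13.0 to 30.5) and 22.9 (15.2 to 31.1). The share of Pfkl in the summed FPKM of the 3 subunits was 59.3 ± 4.36% (SD, n = 65) in C57BL6/J and 64.9 ± 4.32% (SD, n = 63) in BALB/c.

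Pfkfb3 was lower in BALB/c, with a log2 difference of -0.54 ± 0.10 (edgeR, adjusted p = 3.01e-06). Its median was 11.9 CPM in C57BL6/J (2.41 to 38.8) and 5.93 in BALB/c (1.74 to 27.6), and 55 of 63 BALB/c libraries lay below their C57BL6/J mean. Pfkfb4 was higher in BALB/c by 0.38 ± 0.11 (edgeR, adjusted p = 0.00183), in 45 of 63 libraries, with medians of 1.35 CPM (0.363 to 4.10) and 1.90 (0.610 to 5.52). These 4 genes kept their call in all 17 alternative analyses. Pfkfb2 (0.19 ± 0.06), Pfkp (-0.17 ± 0.07) and Pfkfb1 (-0.14 ± 0.06) passed more narrowly (edgeR, adjusted p = 0.0054, 0.0296 and 0.0344). Within-batch none of these 3 passed (edgeR, adjusted p = 0.0687, 0.0814 and 0.138), whereas all 3 passed with the suffix as a covariate. The cholangiocyte sum, which went with Pfkp within groups, was also lower in BALB/c, with a median of 13.5 CPM (6.47 to 63.7) against 21.2 (6.15 to 138) in C57BL6/J. Its part in the Pfkp strain difference was not tested.

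Whether feeding or drink acted differently in the 2 strains was tested as an interaction. For feeding time on water 0 of 7 genes passed beside 0.634% of all genes. For drink 0 of 7 passed at each time, beside 0.0474% at 3 h, 0.178% at 6 h and 0% at 12 h. DESeq2 called 0 of these 28 tests. By edgeR 2 had an unadjusted p under 0.05, a limit at which the share of all genes was not counted. They were Pfkfb3 (0.0402) and Pfkfb2 (0.0415) for drink at 12 h. The BALB/c water group at 12 h holds the library that stands apart in both genes.

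**Figure D4:**
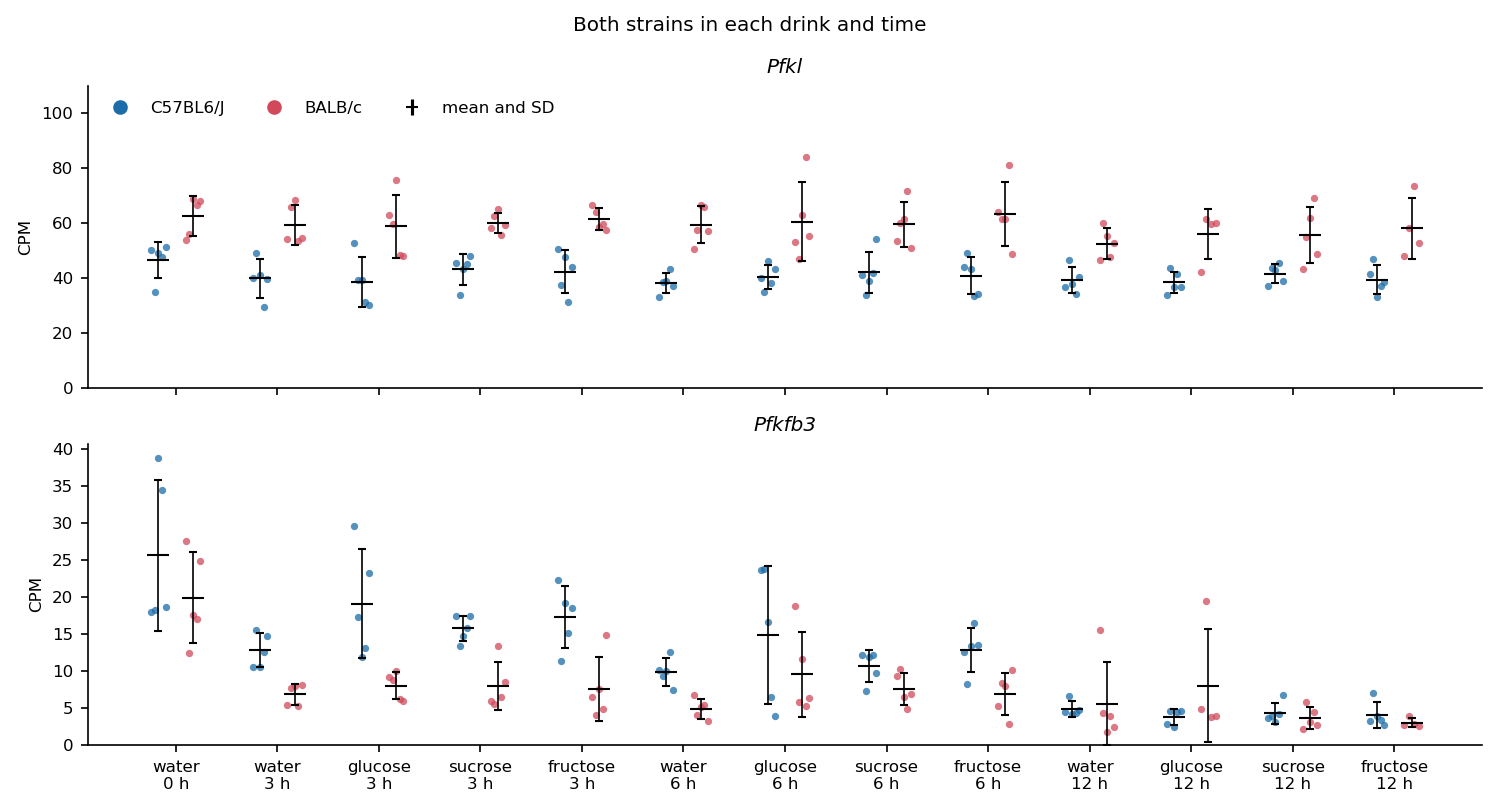
Pfkl (top) and Pfkfb3 (bottom) in CPM in each of the 13 conditions of drink and time, C57BL6/J in blue and BALB/c in red; points are libraries, and black bars give the mean and SD of 5 libraries, or 4 for BALB/c on glucose and on fructose at 12 h. The Pfkl mean was higher in BALB/c in 13 of 13 conditions, and the Pfkfb3 mean was lower in 11.

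Pfkm is the main subunit of skeletal muscle, and some libraries held muscle transcripts. The sum of 10 muscle markers, all found, ranged from 0.805 to 604 CPM with a median of 59.4. Its median was 195 CPM in fasted libraries, 91.3 at 3 h and 248 at 6 h. By 12 h it was 2.17, and the highest library then had 124.6. By strain it was 25.9 in C57BL6/J and 124.6 in BALB/c, the same direction as Pfkm. With the muscle sum as a covariate the strain difference of Pfkm was 0.20 ± 0.04 (edgeR, adjusted p = 1.78e-06). Within groups, Pfkm and the log2 muscle sum deviated together, with a Pearson correlation of 0.585 and a Spearman correlation of 0.563 over all libraries, which share their depth between both measures, given as a description. With the muscle covariate Pfkm was higher at 12 h than at 6 h over the 4 drinks by 0.26 ± 0.07 (edgeR, adjusted p = 0.000781). Without the covariate the difference was -0.08 (edgeR, adjusted p = 0.265). On water alone the change from 6 to 12 h was 0.12 without and 0.41 with the covariate (edgeR, adjusted p = 0.00121 with it). Low muscle sums and the 12 h time went together, though sums down to 0.805 CPM at 3 h and 1.34 CPM at 6 h also occurred. The parts of muscle and time in the Pfkm level were not tested beyond this covariate. Pfkfb3 at 12 h against 0 h was -2.02 with the covariate, close to its -2.11 without it.

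**Figure D5:**
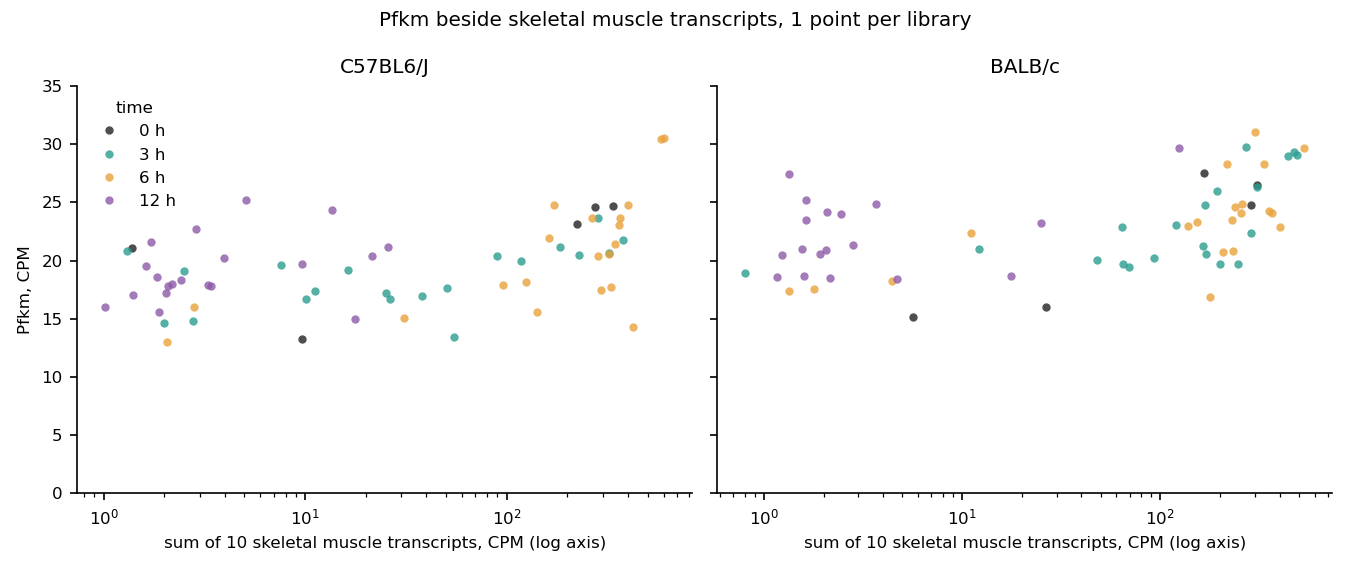
Pfkm in CPM against the summed CPM of 10 skeletal muscle markers, on a log axis, with a panel for each strain and a point for each library, coloured by time. Libraries at 12 h lie at the low end of the muscle sum, with a median of 2.17 CPM.

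Other genes of the pathway were read from 3 lists. The 18 glycolytic enzymes other than phosphofructokinase had a median log2 fold change of 0.09 at 3 h against 0 h on water, and 1 rose and 0 fell, beside 25.4% of all genes called. Hk1, a hexokinase, was at 0.42 and Gapdh at 0.22, and neither passed (edgeR, adjusted p = 0.0726 and 0.121). Of 8 gluconeogenic counterparts, 0 rose and 4 fell, with a median of -0.32. Pck1, which makes phosphoenolpyruvate, fell by 3.34 ± 0.49 (edgeR, adjusted p = 3.24e-08) on the log2 scale. G6pc, which releases free glucose, fell by 1.49 ± 0.29 (adjusted p = 3.01e-05) and Pck2 by 0.62 ± 0.16 (adjusted p = 0.00159). The median over all genes was -0.01.

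Of 16 regulators that act on or beside the fructose 6-phosphate step, 15 were tested, 1 rose and 4 fell at 3 h, with a median of -0.06. Foxo1, a transcription factor that insulin signalling holds out of the nucleus, fell by 1.30 ± 0.14 (edgeR, adjusted p = 7.06e-13), and the insulin receptor Insr by 0.49 (adjusted p = 3.92e-05). Prkaca, a catalytic subunit of the kinase that phosphorylates the Pfkfb1 enzyme, rose by 0.41 (adjusted p = 0.000526). At 6 h against 0 h the counts of higher and lower genes were 4 and 0 of 18, 0 and 4 of 8, and 1 and 4 of 15 in the order of the lists, beside 28.8% of all genes. At 12 h against 0 h they were 2 and 1, 0 and 3, and 2 and 3, beside 17.6%. From 6 to 12 h over the 4 drinks, 9 of 18 glycolytic genes fell and 0 rose, beside 51.6% of all genes called, with a median of -0.22 against -0.01 over all genes.

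On fructose against water at 3 h, where no phosphofructokinase or Pfkfb gene passed, 3 of 18 glycolytic genes rose and 0 fell, beside 6.71% of all genes called. Gpi1, which makes fructose 6-phosphate, rose by 0.75 ± 0.14 (edgeR, adjusted p = 6.3e-05). Pklr, the liver pyruvate kinase, rose by 1.13 ± 0.37 (adjusted p = 0.0457). Of the gluconeogenic genes, G6pc rose by 1.62 ± 0.30 (adjusted p = 6.7e-05), while Pck1 (1.19, adjusted p = 0.106) and Slc37a4 (0.29, adjusted p = 0.259) did not pass. Among the regulators Prkaa1 rose by 0.35 (adjusted p = 0.0229). Mlxipl, the carbohydrate-responsive factor ChREBP, was at 0.61 (adjusted p = 0.079) and Hif1a at -0.22 (adjusted p = 0.412). In this comparison the log2 difference was 0.07 ± 0.10 for Pfkl and 0.19 ± 0.11 for Pfkm.

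The genes whose group means of log2 CPM ran most like each member over the 26 groups were sought among 8835 genes, as a description. For Pfkl these were C1rb (Pearson correlation 0.974), Cyp2a4 (0.973) and Kdm2b (0.969), and for Pfkfb3 Coq10b (0.925), Hnf4a (0.919) and Slc37a4 (0.916). For Pfkfb4 they were Dock6 (0.891), Cgn (0.862) and Apobec1 (0.855), and for Pfkfb2 Smoc1 (0.836), Dcaf13 (0.824) and Slc19a1 (0.818). Pfkm ran most like Dnase2a (0.804), Ugdh (0.794) and Unc119 (0.758), and Pfkfb1 like Pigv (0.785), Acrbp (0.782) and Zbtb45 (0.753). Pfkp had the lowest values, with Ccl25 (0.680), Msn (0.674) and Rdh11 (0.667). Between members, Pfkl and Pfkm had a correlation of 0.722. The groups share strain and time, which enter all of these correlations.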

How the data were processed

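Per the labels' protocols, liver RNA of 26 groups of strain, drink and time was sequenced in paired reads of 150 bp. The tests used the deposited table of raw counts, which carries no normalization by the authors. The authors also deposited FPKM values, which equal the count over gene length and total count in 100% of cases (relative tolerance 1e-06) and served to compare genes with each other. The submitters' processing notes name CASAVA, STAR 2.5, HTSeq 0.6.1, DESeq2 and mm10 (GRCm38), with no role or order.

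The filterByExpr step left 16886 genes, which were scaled by TMM and tested with edgeR 4.0.16 in R 4.3.3 (quasi-likelihood, robust, 1 mean per group over all libraries). P-values were adjusted by Benjamini-Hochberg over all genes of a contrast, at 0.05. SE was derived as the absolute log2 fold change over the square root of the F statistic of the edgeR test. The 95% intervals were taken from this SE with the normal quantile. Contrasts other than strain average both strain effects. A direction is counted against the control mean of the library's own strain. CPM uses TMM-scaled totals, and the marker sums given here use unscaled totals. The muscle covariate was instead the centred log2 of the muscle sum plus 1, from TMM-scaled CPM. No pair of libraries in a group agreed within sampling noise (lowest chi-square per degree of freedom 19.17). The scripts were tested on simulated counts.

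The 7 genes, the lists and the tests were chosen with earlier results of these data known. Named from each pathway list are the 3 genes with the smallest p at 3 h against 0 h on water and on fructose against water at 3 h, and for each member the 3 genes most like it with a mean CPM of at least 5. Some list genes chosen in this way are not reported here. The suffix a, carried by 20 libraries numbered 2, by 2 numbered 4, by 12 numbered 5 and by 0 others, accounted for 38.6% of the first residual component, which held 13.5% of the residual variance. Alternatives were DESeq2 1.42.0, size factors by RLE, no filter, a replicate block, the suffix as covariate or its libraries left out, the libraries of the contrast alone, the muscle sum as covariate, and each replicate or the libraries that stand apart left out. Leaving out BALB/c 12 h replicate 1, alone or with the other such libraries, was added after the data were examined.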

Additional observations from a re-analysis of the deposited data

Results flagged for a closer look

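For each gene and group the library farthest from the rest was compared with the range of its group, and 13 of 182 such sets held a library past the 95% limit of Dixon's test. Chance alone gives about 1 in 20. BALB/c water 12 h replicate 1 was the high library for Pfkfb1 (94.5 CPM, the others 36.3 to 47.4), Pfkfb2 (42.9, others 12.6 to 20.2) and Pfkfb3 (15.5, others 1.74 to 4.38). In the fasted groups, Pfkl in C57BL6/J replicate 2 was low at 34.97 CPM (others 47.5 to 51.2), and Pfkfb2 in BALB/c replicate 1 was high at 43.6 (others 16.2 to 21.6).

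Of the other phosphofructokinase values, Pfkl in BALB/c glucose 12 h replicate 1 was 42.3 CPM (others 59.6 to 61.7), Pfkm in BALB/c water 3 h replicate 2 was 25.9 (others 19.7 to 21.3) and Pfkp in C57BL6/J fructose 12 h replicate 4 was 4.73 (others 2.98 to 3.38). Pfkfb3 at 12 h was high in C57BL6/J water replicate 2 (6.68 CPM, others 4.13 to 4.72), C57BL6/J fructose replicate 2 (7.01, others 2.67 to 3.85) and BALB/c glucose replicate 2 (19.5, others 3.79 to 4.83). Pfkfb4 was high in C57BL6/J water 3 h replicate 4 (3.83 CPM, others 0.637 to 0.969) and in BALB/c fructose 12 h replicate 5 (2.37, others 0.921 to 0.984).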

How the results depend on the processing

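Of 35 tests of feeding on water 10 passed, and 6 to 11 did without each replicate in turn. Of 14 strain tests 8 passed, 4 when suffixed libraries were dropped, and 4 to 7 without each replicate. Of the contrasts averaged over drinks 6 passed, and 4 to 8 without each replicate. The tests of sugars and of interactions gave 0 calls in the main analysis and in all 17 alternatives. With the replicate block the counts were 10, 8 and 6, and with the suffix as a covariate 11, 8 and 6. Both fits kept every call of the main analysis. The main fit did not use replicate number as a block. Same-numbered libraries of different groups had a mean correlation of 0.076 (lowest -0.427) and others -0.019. Most libraries (85) correlated best with their own number, so same-numbered libraries shared some variation that the main fit does not model. Its source was not tested. The fit with the replicate block allows for this shared variation. Over 43 member values and 17 alternatives, 646 kept direction and call, 52 lost the call, 32 gained one and 1 changed direction. That was Pfkm at 12 h against 6 h over the drinks, 0.26 with the muscle covariate, and the cause was not tested. With gene lengths from GENCODE M21 the median subunit shares were 52.7% for Pfkl, 45.4% for Pfkm and 1.53% for Pfkp, because the lengths differ. Counts of 11 to 159 for Pfkfb4 and 30 to 211 for Pfkp limit what could be detected for these genes.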
